A study of Homo sapiens with 56 samples.

Results

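The S100 genes encode small calcium-binding proteins, and 10 of them were followed here over 28 established ovarian cancer cell lines: S100A1, S100A2, S100A4, S100A6, S100A8, S100A9, S100A10, S100A14, S100A16 and S100P. They were taken by name from the 18377 genes measured, each through the probe set with the highest mean among those annotated to that gene alone, and all 10 had one. Total RNA of each line was hybridised to 2 Affymetrix Human Gene ST arrays, 56 in all, and the authors deposited log2 intensities. The labels give DMEM as the base medium of 10 lines, RPMI of 9 and DMEM/F12 of 7, while UWB1.289 had RPMI with MEGM and TOV112D had MCDB105 with M199. Serum ranged from 3% to 20% and some media held insulin or hydrocortisone, no line was treated, and the labels do not say if duplicate arrays stem from separate cultures, so tests that use both arrays measure only the spread between them.

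Most S100 proteins form dimers, change shape when calcium enters their EF-hand loops, and then bind a partner such as an annexin, a myosin or a receptor. Several are also secreted and act on cell surface receptors, among them the receptor for advanced glycation end products (AGER) and TLR4. In tumours, different S100 genes are known as marks of epithelial cells, of motile mesenchymal cells or of infiltrating myeloid cells, and the lines were here ordered by epithelial-mesenchymal transition (EMT), the change in which epithelial cells lose their junctions and gain a mesenchymal form.

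The position of a line along EMT was given by a score that compares 200 mesenchymal with 182 epithelial signature genes on each array, and a higher score is more mesenchymal. S100A9 and S100A14 belong to the epithelial genes of that signature and were left out of the score. The score ran from -0.82 in PEO1 to 0.72 in TOV112D, with 14 lines below 0 and 14 above. All 8 markers of ovarian carcinoma were measured, and they varied between lines. The keratins KRT8 (9.01 to 13.74) and KRT18 (9.18 to 13.28) lay well above the array medians of 5.96 to 6.31 in every line. PAX8 (6.29 to 10.95), KRT7 (5.94 to 13.33), MSLN (5.79 to 9.59), WT1 (5.83 to 9.76, median line 6.40) and MUC16 (4.99 to 9.27, median line 5.58) came down to that level in some lines, and EPCAM, an epithelial adhesion molecule, ran from 4.57 in HEYC2 to 14.53 in PEO1. There were 3 arrays that stood apart (OVCA420 replicate 1, OV56 replicate 2 and HEYC2 replicate 1), with a standard deviation over probe sets of 1.84 to 1.89 against 2.09 to 2.32. In 5 lines (OV56, OAW42, FUOV1, OV7 and HEYC2) the 2 arrays had scores of opposite sign. The arrays of a line were over 1 log2 unit apart in 19 of 280 combinations of a line and an S100 gene.

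In the human genome (GRCh38.p14), 9 of the 10 genes lie on chromosome 1, from S100A10 at chr1:151982915-151993859 to S100A1 at chr1:153628434-153632039, and S100P lies alone on chromosome 4 at chr4:6693878-6697170. S100A16 (chr1:153606883-153613137) and S100A14 (chr1:153614255-153616325) are neighbours on the minus strand with 1117 bases between them. S100A1 lies on the plus strand inside the span of S100A13 on the minus strand, so a signal from the overlapping stretch could be assigned to either gene if the labelling does not keep strand. The 250 bases before the start of S100A14 and S100A16 are shown because the first was called along the score and the second is its nearest S100 neighbour, and those of S100A9 because it is the other S100 gene of the epithelial signature. They are RefSeq sequences read 5′ to 3′ on the strand of the gene, at chr1:153616326-153616575 (minus), chr1:153613138-153613387 (minus) and chr1:153357604-153357853 (plus). Capitals mark the E2-box, CACCTG or its reverse complement CAGGTG, the core sequence that ZEB and SNAI repressors recognise, and in S100A9 also AACCNGTT, a sequence close to that recognised by the Grainyhead-like factors.

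S100A14: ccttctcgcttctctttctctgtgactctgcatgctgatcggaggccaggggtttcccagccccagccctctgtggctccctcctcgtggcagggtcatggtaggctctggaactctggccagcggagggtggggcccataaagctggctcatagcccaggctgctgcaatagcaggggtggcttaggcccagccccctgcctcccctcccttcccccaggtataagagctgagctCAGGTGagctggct
S100A16: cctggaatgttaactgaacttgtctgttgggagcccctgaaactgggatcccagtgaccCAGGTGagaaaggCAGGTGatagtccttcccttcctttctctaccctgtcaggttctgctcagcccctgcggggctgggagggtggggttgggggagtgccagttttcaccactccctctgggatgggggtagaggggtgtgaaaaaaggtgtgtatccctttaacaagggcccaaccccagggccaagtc
S100A9: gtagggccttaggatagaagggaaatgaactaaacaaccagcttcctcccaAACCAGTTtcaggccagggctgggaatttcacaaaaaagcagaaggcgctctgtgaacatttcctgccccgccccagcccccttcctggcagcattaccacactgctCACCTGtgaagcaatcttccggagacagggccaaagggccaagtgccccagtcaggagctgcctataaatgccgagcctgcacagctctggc

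The E2-box of S100A14 begins 14 bases before the start of transcription, and those of S100A16 begin 191 and 178 bases before it. Windows ran from 250 bases before to 50 bases after an annotated start and were read on both strands. An E2-box was found in 10 of the 14 windows of the S100 genes, against 20.6% of 35116 windows over all genes. These windows belong to 7 of the 10 genes and can overlap within 1 gene, and those of S100A8 all hold the same site. Here and below, the share over all genes is by window and not by gene. AACCNGTT was found for S100A9 alone, against 1.73% of all windows, and begins 107 bases before the E2-box of the same promoter. The TATA sequence, TATAAA, was found in 5 of the 14 windows (4 of the 10 genes), against 11.5% of all windows. It began 31 bases before the start in S100A4, 29 in S100A9, 28 in S100P and, for S100A8, 29 or 126 by the start used. These are matches of letters and say nothing of binding in these cells.

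S100A14 was the S100 gene with the widest range. Its level was 4.57 in SKOV3, the lowest line (arrays at 4.78 and 4.37), 6.86 at the median and 12.09 in PEO1, the highest (12.06 and 12.13), a range of 7.52 log2 units or 184-fold. PEO1 was followed by CAOV3 at 10.87, JHOS3 at 9.94, OAW28 at 9.24 and JHOS4 at 9.22. All 10 lines with the highest S100A14 had a score below 0, whereas SKOV3 and OVCAR2 (4.75) lay 1.38 log2 units below every other line and both had scores above 0. The order between these ends was less certain: 6 of the 27 steps between neighbouring lines were larger than 0.39, the pooled standard deviation of duplicate arrays, and the arrays of FUOV1 stood 2.30 log2 units apart at 5.59 and 7.89. TOV112D and A2780, the lines with the highest scores, lay near the median at 6.70 and 6.83, and DOV13, with a score below 0, lay at 6.48.

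**Figure D1:**
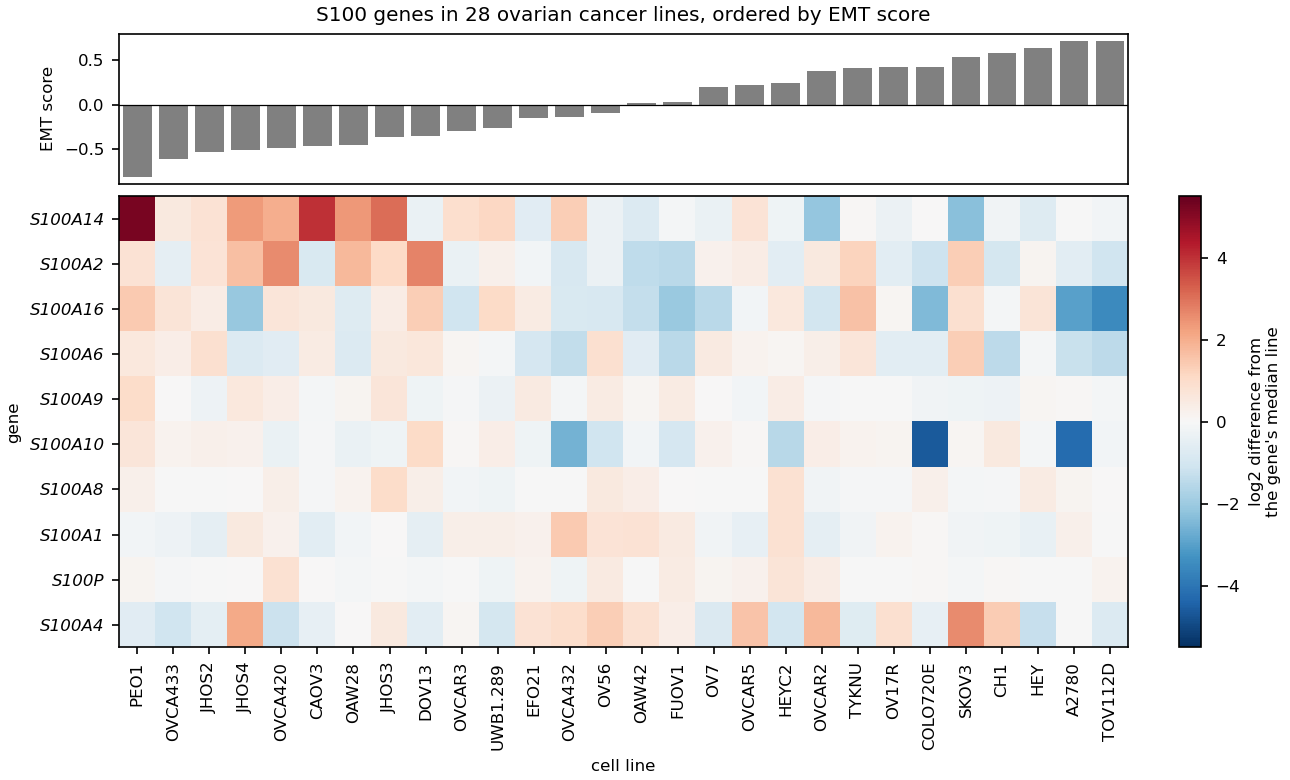
The 28 lines are ordered by EMT score (bars, upper panel), and colours in the lower panel give the log2 difference of each S100 gene from its own median over the lines (means of 2 arrays). S100A14 is highest at the left in PEO1 and CAOV3, S100A10 is lowest in COLO720E and A2780, and S100A8 and S100P vary little.

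Along the score, S100A14 fell, with a Spearman's rho of -0.63 (jackknife SE 0.11, 28 lines, permutation test with 100000 draws, Benjamini-Hochberg adjusted p = 0.048 over all genes). Pearson's r was -0.71 (permutation test, adjusted p = 0.0053) and -0.67 once TOV112D and PEO1, at the ends of the score, were left out. With limma, the level fell by 2.60 log2 units for each unit of score (SE 0.49, adjusted p = 0.0043). The rank call was close to its threshold: it was lost without any 1 of 23 of the 28 lines, with adjusted p between 0.024 and 0.151 and rho between -0.68 and -0.59, and was weakest without PEO1. Within the lines grown in DMEM, RPMI and DMEM/F12 rho was -0.66, -0.57 and -0.79. Because S100A14 was chosen for the signature as an epithelial gene, its direction is not independent evidence about the family.

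S100A14 was the only one of the 10 S100 genes called lower along the score, against 0.697% of all genes (128 of 18377), and none was called higher, against 0.152% (28 of 18377). At an unadjusted p under 0.05, 2 of the 10 passed, S100A14 and S100A2, against 10.1% of all genes, and Pearson's r called 1 of the 10 against 0.892%. S100A2, an epithelial S100 protein of the nucleus, had a rho of -0.42 (SE 0.16, permutation test, adjusted p = 0.40). S100A16 had -0.32 (SE 0.21), S100A6 -0.28 (SE 0.20), S100A9 -0.28 (SE 0.20), S100A10 -0.24 (SE 0.19) and S100A8 -0.12 (SE 0.18). S100A1 (0.02, SE 0.19), S100P (0.11, SE 0.18) and S100A4 (0.13, SE 0.22) lay above 0, and none of the 9 genes had an adjusted p under 0.40. The median rho was -0.26 over the S100 genes and 0.01 over all genes, and 7 of the 10 lay below 0 as did 47.9% of all genes.

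**Figure D2:**
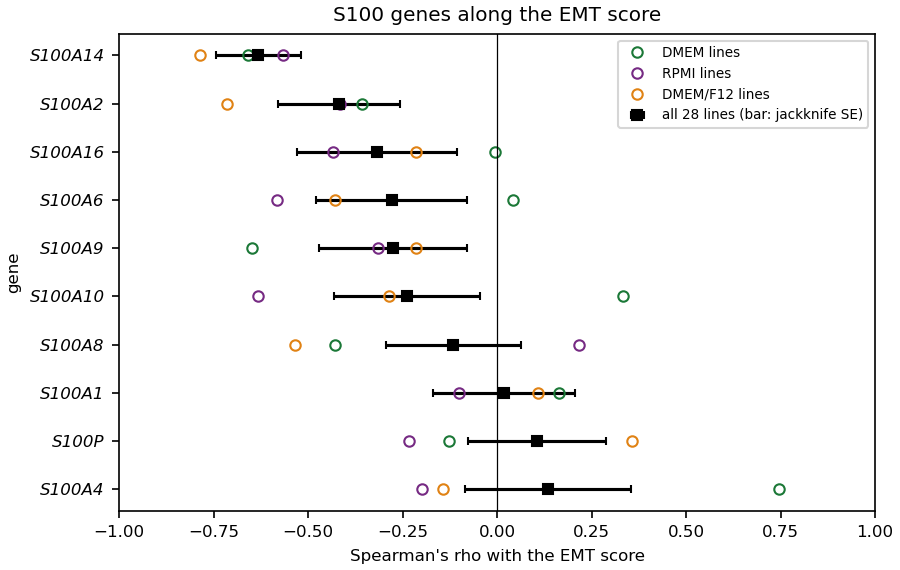
Squares give Spearman's rho of each S100 gene with the EMT score over 28 lines, with bars for the jackknife SE, and open circles give rho within the 10 DMEM, 9 RPMI and 7 DMEM/F12 lines. S100A14 lies below -0.5 in every set. For S100A1, S100A4, S100A6, S100A8 and S100A10 the DMEM lines lie on the other side of 0 from the RPMI lines.

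The genes whose pattern over the 28 lines was most like that of S100A14 were PRSS8 (rho 0.90), ST14 (0.89) and C1orf210 (0.89). PRSS8 and ST14 encode membrane serine proteases of epithelia, prostasin and matriptase, and both belong to the epithelial signature, as does GRHL2, the Grainyhead-like factor that maintains epithelial genes, with a rho of 0.84. CDH1 (E-cadherin) and EPCAM ran with S100A14 at 0.62 and 0.66, while VIM (vimentin) and ZEB1 ran against it at -0.69 and -0.72. These values describe 28 lines that share arrays and scaling, and without the 3 arrays that stood apart they were 0.91 for PRSS8 and ST14, 0.86 for C1orf210, 0.84 for GRHL2, 0.66 for CDH1, 0.74 for EPCAM, -0.73 for VIM and -0.75 for ZEB1.

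S100A16, a broadly expressed S100 protein with a reduced calcium site, was ordered differently over the lines, although no test compared the slopes of the neighbours along the score. Its level was 6.67 in TOV112D (6.96 and 6.37), 10.17 at the median and 11.76 in TYKNU (11.78 and 11.75), and 4 of the 27 steps between neighbouring lines exceeded the duplicate standard deviation of 0.34. TYKNU and PEO1 (11.63) lay at the top although their scores were 0.41 and -0.82, and SKOV3, the lowest line for S100A14, was the fifth highest for S100A16 at 11.06. Over the 28 lines, S100A14 and S100A16 had a rho of 0.08 with each other. JHOS4 had high S100A14 at 9.22 but was low for S100A16 at 8.10. The nearest patterns to S100A16 were those of ADTRP (0.76), RAB1B (0.75) and LTBP2 (0.74).

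**Figure D3:**
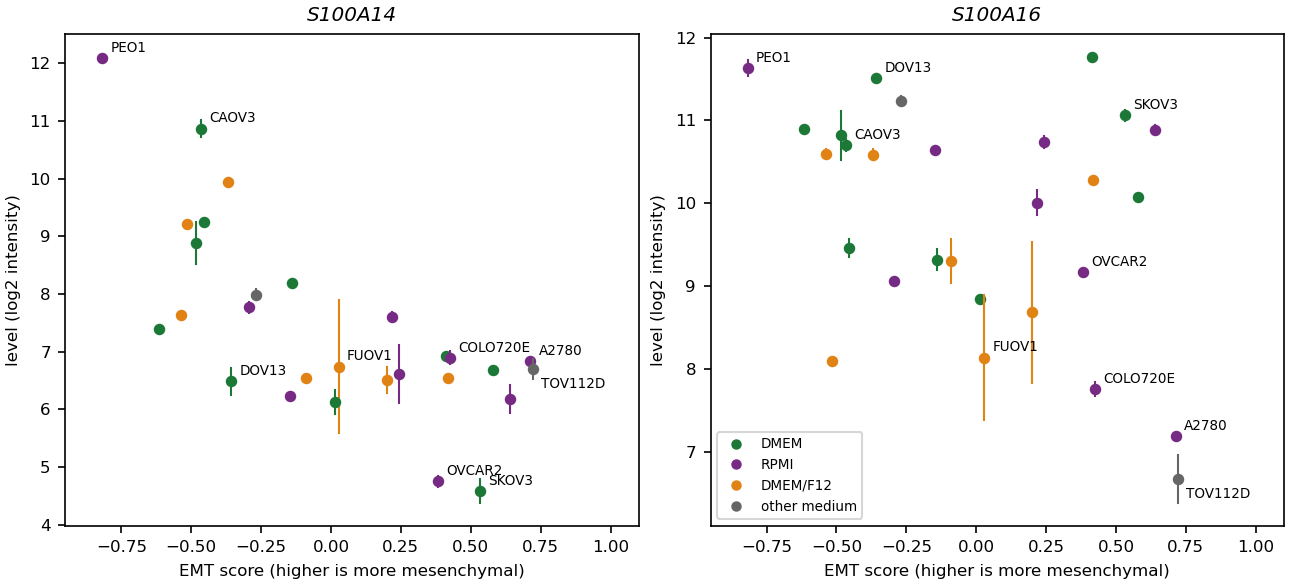
The level of S100A14 (left) and S100A16 (right) is plotted against the EMT score, with points for the mean of a line, vertical lines joining its 2 arrays and colours for the base medium. S100A14 is highest in PEO1 (12.09) and lowest in SKOV3 (4.57), and S100A16 is high in both of these lines. TOV112D and A2780, with the highest scores, lie at 6.70 and 6.83 for S100A14.

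S100A10, also called p11, has lost calcium binding and forms a membrane complex with annexin A2 (ANXA2) and the giant protein AHNAK. Its level was 8.21 in COLO720E (8.39 and 8.03), 12.85 at the median and 13.91 in DOV13 (13.90 and 13.92). In 22 of the 28 lines it lay at 12 or above. COLO720E and A2780 (8.55 and 8.71) were 1.63 log2 units or more below the rest, and OVCA432 came next at 10.26 (10.38 and 10.15), with both arrays low in each of these lines. By contrast, the intermediate levels of FUOV1 (10.94 and 12.90), OV56 (12.87 and 10.65) and HEYC2 (10.37 and 12.31) came from 1 low array each, 2 of them among the arrays that stood apart.

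The partners of S100A10 were low in the same lines. COLO720E was the lowest of 28 lines and A2780 the next for ANXA2 (9.43 and 10.16 against a median of 11.99), for AHNAK (7.29 and 7.83 against 10.10) and for ANXA1, the annexin bound by S100A11 (6.59 and 8.18 against 11.88). S100A11 was also lowest in COLO720E (7.01 against a median of 10.88), but lay at 10.34 in A2780, where 9 lines were lower. ANXA11, bound by S100A6, was lowest in COLO720E (7.89) and near its median in A2780 (10.09 against 10.02), as was ANXA6 (9.44 against 9.46). Over the 28 lines S100A10 ran with ANXA2 at a rho of 0.69 (Pearson's r 0.88) and with AHNAK at 0.60 (0.80), and without COLO720E and A2780 these were 0.61 (0.77) and 0.50 (0.50). Without the 3 arrays that stood apart rho was 0.54 for ANXA2 and 0.49 for AHNAK. ANXA2 has a near-identical processed copy, ANXA2P2, and the arrays may not separate the pair. The keratins KRT8 and KRT18 were among their 3 lowest in both lines too, at 9.01 and 9.63 in COLO720E and at 9.22 and 9.18 in A2780. Their part in the low S100A10 was not tested. The nearest patterns to S100A10 by rank were ARL6IP5 (0.77), SPATS2L (0.76) and RAB8A (0.76).

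**Figure D4:**
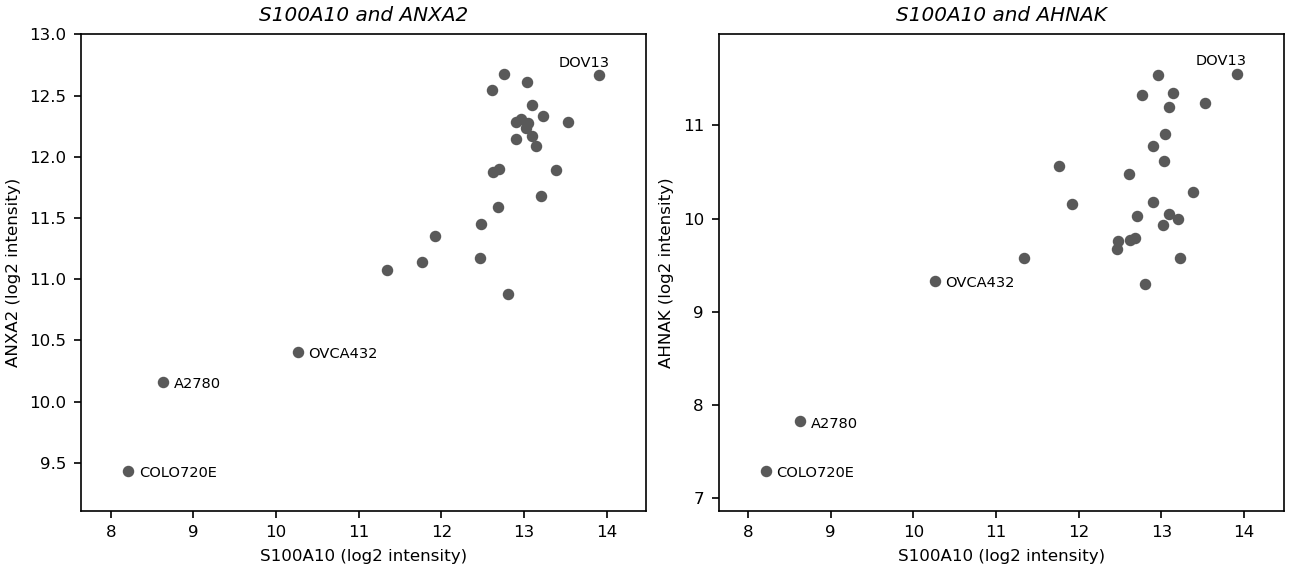
Each point is 1 of 28 lines (mean of 2 arrays, log2 intensity), with S100A10 on the horizontal axis and its partner ANXA2 (left) or AHNAK (right) on the vertical axis. COLO720E and A2780 lie at the lower left in both panels, apart from the cloud in which S100A10 is at 12 or above.

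S100A4, known as metastasin or fibroblast-specific protein 1, binds non-muscle myosin MYH9 and is often used as a mesenchymal marker. Its level was 6.03 in HEY (6.21 and 5.85), 7.32 at the median and 9.92 in SKOV3 (9.89 and 9.94). The lines after SKOV3 were JHOS4 at 9.40, OVCAR2 at 9.08 and OVCAR5 at 8.88, of which JHOS4 had a score of -0.52. HEY, with a score above 0, was the lowest line, with OVCA433 (6.21), on the epithelial side of the score, close to it. OVCA420, also on that side, averaged 6.14 from arrays at 7.04 and 5.23, and its higher array is one that stood apart, so its place against HEY turns with that array. Within the DMEM lines rho with the score was 0.75, but it was -0.20 within RPMI and -0.14 within DMEM/F12. S100A4 had a rho of -0.03 with VIM, 0.11 with CDH1 and -0.07 with MYH9. Its nearest patterns were SULT1C2 (0.74), ARRB1 (0.71) and KCNK5 (0.68).

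S100A6, or calcyclin, was at 7.34 in FUOV1 (6.86 and 7.83), 8.84 at the median and 10.21 in SKOV3 (10.02 and 10.39). SKOV3 stood 0.49 above JHOS2 and OV56, more than the duplicate standard deviation of 0.34, and was thus the highest line for both S100A4 and S100A6. Its rho with CACYBP, the calcyclin-binding protein, was -0.22 and with ANXA11 -0.02. The nearest patterns were RELL1 (0.79), LIMK1 (0.77), a kinase of actin turnover, and AHNAK2 (0.75). S100A2 was at 5.37 in FUOV1 (5.00 and 5.74), 6.83 at the median and 9.58 in DOV13 (9.45 and 9.71). OVCA420 (9.42) joined DOV13 at the top, 0.80 above OAW28 at 8.62, and all 3 lines had scores below 0. Its duplicates were the closest among the 10 genes, with a pooled standard deviation of 0.21 against 1.16 over lines. The nearest patterns to S100A2 were TMSB4XP2 (0.77), CAPN1 (0.71), a calcium-dependent protease, and TAGLN2 (0.69).

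S100A1, best known from heart and skeletal muscle, was at 5.09 in CAOV3 (5.38 and 4.80), 5.65 at the median and 7.08 in OVCA432 (6.92 and 7.25). OVCA432 lay 0.59 above the next line, HEYC2, and this was the only step of 27 above the duplicate standard deviation of 0.37. OVCA432 was at the same time the third lowest line for S100A10. The nearest patterns to S100A1 were JMJD4 (0.79), TRPV1 (0.77) and RUSC1-AS1 (0.77).

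S100A8 and S100A9 form calprotectin, which neutrophils and monocytes carry in large amounts and which binds AGER and TLR4. S100A9 was at 5.73 in UWB1.289 (5.88 and 5.58), 6.04 at the median and 7.04 in PEO1 (6.85 and 7.23), followed by JHOS3 at 6.73 and JHOS4 at 6.63. S100A8 was at 4.11 in UWB1.289, 4.36 at the median and 5.38 in JHOS3, where both arrays were high (5.39 and 5.37). Its next lines, HEYC2 (6.02 and 4.39) and OV56 (4.15 and 5.65), were high on 1 array each, and these were arrays that stood apart. The rho between S100A8 and S100A9 was 0.57, and 0.31 without those arrays. The nearest patterns were BDKRB1 (0.76), FAM27E5 (0.75) and the basal keratin KRT14 (0.74) for S100A9, and OR4K14 (0.75), LPA (0.75) and HCAR3 (0.67) for S100A8. The levels of S100A8 varied less over lines than between duplicates, and these neighbours were not recomputed without the arrays that stood apart.

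Of the 10 myeloid markers, 9 were measured and none was called along the score. PTPRC, the pan-leukocyte gene, ran from 2.80 to 3.93 and CSF3R, the granulocyte receptor, from 4.68 to 5.65, while CD14 reached 7.90 in CAOV3 and LYZ 4.97 in TYKNU. PEO1, the highest line for S100A9, was not the highest for any of the 9, and JHOS3, the highest for S100A8, was the highest for CSF1R, the macrophage receptor (5.11 to 5.98 over the lines).

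S100P, named after placenta, was at 5.07 in UWB1.289 (5.04 and 5.11), 5.32 at the median and 6.15 in OVCA420 (6.63 and 5.67). Its 3 highest lines, OVCA420, HEYC2 (6.54 and 5.52) and OV56 (5.36 and 6.25), were those that hold the arrays that stood apart, and in each of them the higher value came from that array. No step between neighbouring lines exceeded the duplicate standard deviation of 0.31. The nearest patterns to S100P were TFF1 (0.81), OR1B1 (0.77) and EREG (0.76). They rest on levels that varied less over lines than between duplicates, and were not recomputed without the arrays that stood apart.

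The lines differed in 8 of the 10 S100 genes by more than duplicate arrays did (limma moderated F-test, adjusted p under 0.05), where 65.7% of all genes were called. Adjusted p was 3.40e-18 for S100A2, 3.49e-16 for S100A14 and 9.91e-15 for S100A16, and the largest among the 8 was 0.00047 for S100A1. S100A8 (adjusted p = 0.22) and S100P (0.21) did not pass. Without the 3 arrays that stood apart S100A8 passed (adjusted p = 0.00095) and S100P did not (0.40), and leaving out replicate 1 of OV56 or replicate 2 of HEYC2 gave 9 and 10 genes in place of 8. Calls over all 18377 genes also rose in these fits, from 12069 to 14128 and 14861, and the array that stood apart was then the only one of its line. For the fit without all 3 arrays the share over all genes is not given here, so S100A8 passing in it is not read as a result about that gene. The standard deviation over lines was 0.30 for S100A8 and 0.26 for S100P, below that of their duplicates, and 1.68 for S100A14, 4.34 times that of its duplicates.

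SKOV3 and PEO1 are lines of the cell line model of EMT in the study. In the score rebuilt here SKOV3 stood at 0.53 and PEO1 at -0.82. S100A14 was 7.52 log2 units lower in SKOV3 (SE 0.37, limma adjusted p = 1.58e-16) and S100A9 was lower by 1.22 (SE 0.24, adjusted p = 0.00022). Thus 2 of the 10 S100 genes were called lower against 5.46% of all genes. Both are epithelial genes of the signature, so their direction between these lines is not independent evidence about the family. S100A4 was 3.22 log2 units higher in SKOV3 (SE 0.40, adjusted p = 1.79e-07), at 9.89 and 9.94 against 6.47 and 6.93 in PEO1, which makes 1 of the 10 called higher against 5.31% of all genes. The arrays of SKOV3 and PEO1 did not overlap for any of the 10 S100 genes but S100A1, so this does not set the 3 called genes apart. The share over all genes was not counted. The differences of the other 7 did not pass: they were 0.77 for S100A6 (SE 0.34), 0.56 for S100A2 (SE 0.22), -0.57 for S100A10 (SE 0.51) and -0.57 for S100A16 (SE 0.35), and lay between -0.38 and -0.05 for S100A8, S100P and S100A1. With 1 line at each end, the state and the line cannot be told apart.

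**Figure D5:**
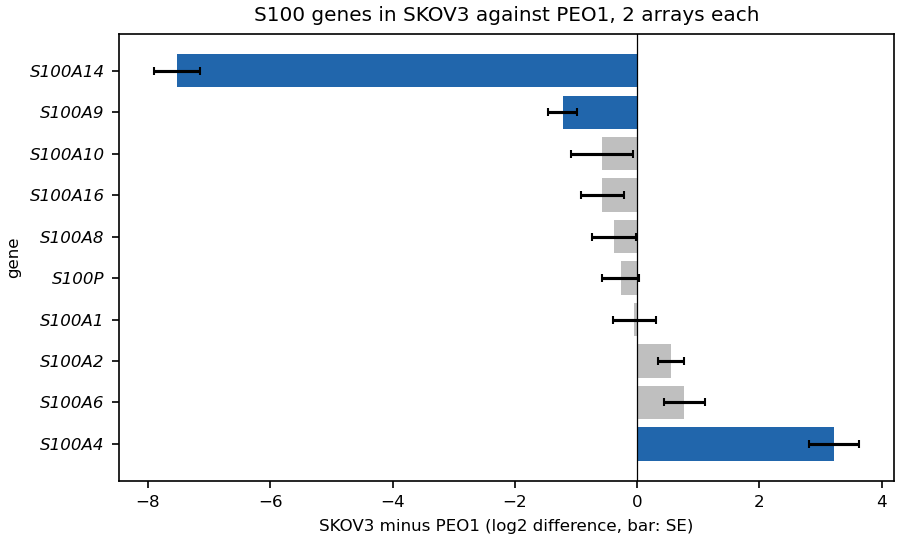
Bars give the log2 difference of SKOV3 minus PEO1 for each S100 gene with its SE, from 2 arrays of each line, and blue bars passed the test. S100A14 (-7.52) and S100A9 (-1.22) are lower in SKOV3 and S100A4 (3.22) is higher.

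Base media were compared over 26 lines, with the line as the replicate. None of the 10 S100 genes was called as differing between DMEM, RPMI and DMEM/F12 (limma F-test, 0% of all genes called), and none passed an unadjusted p under 0.05, which 1.9% of all genes reached. S100A14, for example, averaged 7.54 ± 1.80 in DMEM (SD, n = 10), 7.22 ± 2.03 in RPMI (n = 9) and 7.59 ± 1.43 in DMEM/F12 (n = 7). S100A10 averaged 12.70 ± 0.96, 11.79 ± 2.00 and 12.67 ± 0.59, and both of its lowest lines were grown in RPMI. A relation to the score that differs between media was not called for any of the 10 either (limma interaction test, 0.00544% of all genes called, 0 of the 10 against 2.79% of all genes at an unadjusted p under 0.05). The smallest unadjusted p of the 10 in that test was 0.105, for S100A4.

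Between the S100 genes themselves, the 45 pairs had a median rho of -0.02 over the 28 lines, from -0.56 to 0.57. Besides S100A8 with S100A9, the pairs above 0.5 were S100A6 with S100A16 (0.54) and S100A2 with S100A6 (0.51), and S100A1 with S100A10 was below -0.5 (-0.56, and -0.47 without the 3 arrays that stood apart). Closeness on chromosome 1 did not go with a high rho in every case, as S100A14 and S100A16 show. Of 12 other S100 family and related genes, all were measured and none was called along the score, with rho between -0.44 for S100A11 and 0.28 for S100PBP, which encodes an S100P-binding protein. S100A3 was highest in SKOV3 at 8.47, as S100A4 and S100A6 were, and had a rho of 0.53 with S100A6.

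None of the binding partners (11 of 12 measured) or receptors (all 8 measured) was called along the score. Among partners rho ran from -0.35 for ANXA11 to 0.46 for ANXA6, and among receptors from -0.30 for MCAM to 0.40 for CD36. TLR4 was at 4.43 at the median and 8.59 in UWB1.289. That line was the lowest for S100A8 and S100A9, but also for other listed genes such as S100P, CD36, LYZ and TYROBP. A relation between TLR4 and these genes was not tested. AGER ran only from 5.73 in JHOS3 to 7.23 in FUOV1, and BSG, a further receptor of S100A9, was between 10.67 and 12.40. Of 6 EMT reference genes, 3 were called lower along the score (CDH1 at -0.71, EPCAM at -0.78 and GRHL2 at -0.69), but these 3 are signature genes and enter the score themselves. VIM (rho 0.54, permutation test, adjusted p = 0.19), ZEB1 (0.60, 0.085) and CDH2 (0.22, 0.79) were not called. VIM and ZEB1 are mesenchymal signature genes and enter the score too. Of 8 ovarian carcinoma markers 3 were called lower, EPCAM, KRT7 (-0.67) and MUC16 (-0.74), which are signature genes as well. Of 8 fibroblast markers none was called along the score, with rho between 0.13 and 0.43.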

How the data were processed

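Per the submitters' processing notes, RMA in affy 1.42.3 was applied by the authors. They deposited log2 intensities, which span 1.35 to 14.89 with array medians from 5.961 to 6.306. The labels name NuGEN amplification of total RNA, and which arrays were normalized together is not given in the sources used here. No detection call was used, so a low level has no known floor. Precision is limited by how many arrays there are. Apart from the carcinoma markers, which were set beside the array medians, levels of different probe sets were not set against each other.

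Of 28869 probe sets, 19310 carried 1 gene, 1752 several and 7807 none that is listed. For 685 genes with more than 1 probe set, that of the highest mean was kept. Duplicates were averaged. One array labelled JHSO4 was taken as JHOS4, from its title. For the EMT score, values were centred by gene on the median line, and the 2 sets of signature genes were compared on each array by a signed Kolmogorov-Smirnov statistic. It was rebuilt because the details of the original formula were not given. Spearman's rho was tested with 100000 permutations of the score, and limma 3.58.1 (trend and robust, statmod 1.5.0, R 4.3.3) gave the tests between lines, media and SKOV3 and PEO1, the last called from 1 log2 unit upward at an adjusted p below 0.05. The permutation tests, the limma slopes and the test of SKOV3 against PEO1 were 2-sided, and the other limma tests were F-tests. Adjusted p-values were taken over 18377 genes, or over 14761 with the filter on low values given below. Other steps ran in scipy 1.17.1, pandas 2.3.3 and numpy 2.4.6 on Python 3.11.15, with plots by matplotlib 3.10.9, and the functions were tested on simulated data. Promoter sequences came from RefSeq (GRCh38.p14), with a window for all 10 genes.

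The genes named are the 10 members, the 3 genes nearest to each by rho, and genes of fixed lists of relatives, partners, receptors and cell type markers. The members and lists were chosen with earlier results of these data known. The alternatives tried were other forms of the score, single arrays, arrays or lines left out, averaged probe sets, a filter keeping genes that reach 6 in a line, quantile normalization, HEY and HEYC2 merged, centring on the medium, Pearson's r, limma slopes, a replicate block, other limma settings and a fit of 4 arrays. Leaving out each line or array in turn was chosen after seeing the data.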

Additional observations from a re-analysis of the deposited data

Results flagged for a closer look

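Among lines grown in the same base medium, 3 of 30 combinations of an S100 gene and a medium held a line far from the others by Dixon's gap test, where chance gives about 1 in 20. In RPMI, S100A14 in PEO1 (12.09) lay above the next of 9 lines (7.77), a gap of 0.589 of the whole range. In DMEM, S100A10 in OVCA432 (10.26) lay below the next of 10 lines (12.47), a gap of 0.604 of the range. Also in DMEM, S100P in OVCA420 (6.15) lay above the next line (5.38), a gap of 0.731 of the range, and OVCA420 holds an array that stood apart.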

How the results depend on the processing

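Along the score, 1 S100 gene was called under all alternatives but 3 and the leaving out of lines, and 0 were called with HEY and HEYC2 merged, without the 2 farthest lines and with values centred on the base medium, which also leaves out UWB1.289 and TOV112D (26 lines). In these 3 alternatives S100A14 had a rho of -0.64, -0.61 and -0.66. Leaving out each line in turn gave 0 to 1 called genes and a single array for each line gave 1. Signs turned for values near 0. S100A1 went to -0.0394 with the uncentred score, to -0.0393 with Pearson's r, to -0.0099 with the difference of means, to -0.0079 with centring on the medium and to a slope of -0.0422, and was -0.17 to 0.20 with a single array. S100P went to -0.0085 with centring on the medium and was -0.297 to 0.345 with a single array. Between SKOV3 and PEO1, 3 genes were called under every alternative, and the difference of S100A1 ran from -0.12 to 0.0294 when 1 array was left out. Between lines, 8 to 10 genes were called when 1 array was left out. In the replicate check, deviations of replicate 1 had a median correlation of -0.00025 over 378 pairs of lines (-0.89 to 0.87), 91 of them over 0.1. The replicate numbers thus showed no common direction over lines. An array effect that runs either way between lines would give the same median, and it was not tested. With the replicate block 8 genes were called between lines and 3 between SKOV3 and PEO1, as without it. The cause of these changes was not tested.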
